A study of Mus musculus with 4 samples.

Results

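Small leucine-rich proteoglycans are secreted proteins of connective tissue whose leucine-rich core binds collagen, and most of them carry glycosaminoglycan chains. The genes examined here were the 9 of this family listed for the sclera and the corneal stroma: decorin (Dcn), lumican (Lum), biglycan (Bgn), fibromodulin (Fmod), osteoglycin (Ogn), keratocan (Kera), Prelp, osteomodulin (Omd) and asporin (Aspn). They were taken by gene name, and all 9 were found among the 22863 genes of the table. RNA-seq had been performed on 4 samples of C3H mouse eyes, 2 from objective day and 2 from subjective day, to compare the eye after morning light with the eye kept in darkness. The mice were C3H/f+/+, a melatonin-proficient strain free of the retinal degeneration mutation of the parent C3H strain, and were raised in a light-dark cycle. Subjective day mice had been kept in darkness for 18 hours and were sampled at circadian time 6, and objective day mice had been exposed to light in the morning, dark-adapted for 1 hour and sampled at zeitgeber time 6 (another passage of the study's text gives a longer dark period for subjective day). Each sample pooled the 4 eyes of a female and a male mouse, of an age that the sources used here do not give for RNA-seq, and no treatment other than the lighting was recorded. The anterior eye and lens had been removed, so that posterior sclera, choroid, retinal pigment epithelium (RPE) and retina remained.

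In the sclera and the cornea, the fibroblasts lay down collagen fibrils, and small leucine-rich proteoglycans on the fibril surface limit the width of the fibrils and space them. Class I of the family holds decorin and biglycan, which carry chondroitin or dermatan sulfate chains, and asporin, which carries an aspartate stretch. Class II holds fibromodulin, lumican, keratocan, osteomodulin and Prelp, of which lumican and keratocan carry keratan sulfate in the cornea, and lumican is needed for its transparency. Osteoglycin belongs to class III. Several of these proteins also bind transforming growth factor beta (TGF-beta), and decorin and biglycan bind receptors on the cell surface.

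The values are called adjusted counts here. From their decimals and nearly equal totals they were judged to be gene counts scaled by the authors to equal library sizes. They summed to between 33278417 and 35236783 per sample, which is taken to reflect that scaling and not the depth. From the spacing of the lowest values, the depth of the samples was put at 89.1% to 107% of its mean. Genes that reached an adjusted count of 10 in 2 or more samples were tested with limma on log2(adjusted count + 1), with a variance that follows the mean level and Benjamini-Hochberg adjustment over all 17784 genes tested. A gene was called at an adjusted p under 0.05. Fold changes are objective over subjective day on that log2 scale, which understates the change of low genes, and ± is the standard deviation (SD) over 2 samples. With 2 samples against 2, the smallest p of an exact two-sided permutation test is 0.333, and the calls therefore depend on the spread that limma shares across genes. All 9 genes passed the filter, and each had at least 10 in all 4 samples. In these whole-tissue samples, fewer cells of a type and less RNA per cell cannot be told apart.

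Osteoglycin, lumican and asporin were lower in objective day, by 52.6%, 40.1% and 44.4%, and were the 3 genes of the 9 that passed the test, where 8.51% of all genes tested were called in either direction. None of the 9 passed it in the higher direction, although fibromodulin, Prelp and biglycan had positive fold changes of 0.38, 0.30 and 0.20. Of all genes tested, 7.45% were called lower and 1.06% were called higher (1325 and 189 genes). With the upper quartile of each sample as the scale, 1241 genes (6.98%) were called lower and 402 (2.26%) higher, and fibromodulin was then called higher (log2 fold change 0.40, limma adjusted p = 0.0449). An unadjusted p under 0.05 was found for 6 of the 9 genes, beside 25.4% of all genes tested. The median log2 fold change of the 9 genes was -0.32, beside 0.015 over all genes tested, with 6 of the 9 below 0, beside 47.4% of all genes tested. The objective and subjective day samples did not overlap for 6 of the 9 genes, beside 56.1% of all genes tested. Of these 6 genes, 4 were lower in objective day (28.2% of all genes tested) and 2 were higher (27.9%).

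The direction of each gene followed the GC content of its transcript. The 6 genes with negative fold changes had a GC content of 34.3% to 41.9% in their longest transcript, and the 3 with positive fold changes had one of 51.2% to 53.8%, where the median gene tested had 49.8%. Across all genes tested, the fold change also followed GC content (Spearman's rho 0.58 over genes, which share libraries and are no replicates), from a median of -0.42 in the lowest of 10 equal groups of genes by GC content to 0.14 in the highest. When the GC trend of each sample was taken out by local regression, 0 of the 9 genes passed limma's test, 3 had an unadjusted p under 0.05, and 1.07% of all genes were called. The median of the 9 genes was then 0.13. The part of the GC relation in each fold change was not tested, and values with the trend removed are given for each of the 9 genes. The removal also takes out any difference in the tissue that follows GC content.

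**Figure D1:**
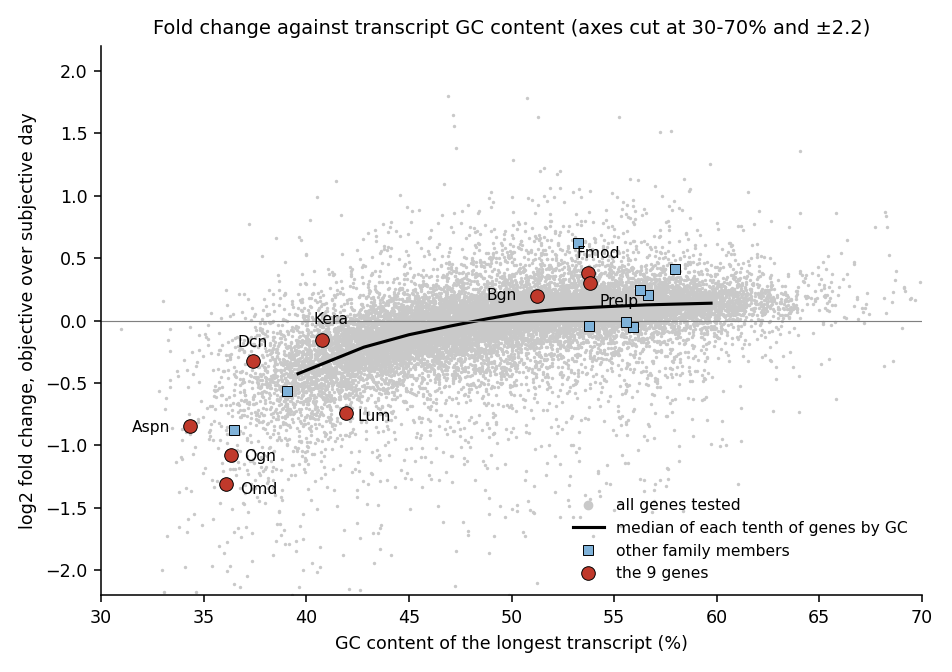
Log2 fold change of objective over subjective day (y axis) against the GC content of the longest transcript in percent (x axis) for all genes tested with known GC content (grey), the 9 genes (red circles) and the other family members (blue squares); the line joins the medians of 10 equal groups of genes by GC content. The 6 genes below 42% lie under 0 and the 3 genes above 51% lie over 0. Lum lies below the line, and Omd (-1.31) and Ogn (-1.08), left of the line's first point, lie lowest of the 9.

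The genes sit in clusters in the mouse genome, and the clusters divided in the same way. Dcn, Lum and Kera lie next to each other on chromosome 10 (GRCm38, plus strand), at chr10:97479609-97518143, chr10:97565128-97572703 and chr10:97606879-97613692. Aspn, Omd and Ogn lie next to each other on the plus strand of chromosome 13, at chr13:49544443-49567565, chr13:49582462-49592822 and chr13:49608046-49624501, inside the span of Cenpp, a centromere protein gene. Prelp and Fmod are neighbours on chromosome 1, at chr1:133910304-133921414 on the minus strand and chr1:134037254-134048277 on the plus strand, and Bgn lies alone at chrX:73483602-73495933 on the plus strand. With the deposited scaling, the fold changes were below 0 for each of the 6 genes on chromosomes 10 and 13 and above 0 for the other 3, although those of Dcn and Kera turned with the GC trend removed or without subjective day replicate 1. Aspn shares 7 exonic bases with Cenpp on the other strand, and Prelp shares 350 with the antisense RNA Gm15851. How the counting treated strand is not given in the sources used here, and the assignment of reads in these bases was not tested. The adjusted counts were 23.5 to 37.5 for Cenpp and 1.87 to 5.72 for Gm15851. The other 7 genes share no exonic bases with another annotated gene.

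To show how these clusters differ in base composition, the 250 bases before the annotated start are printed for the pair on chromosome 13 that was called lower and for the neighbours on chromosome 1 with positive fold changes. They come from RefSeq (GRCm38.p6), read 5′ to 3′ on the strand of the gene, at chr13:49607765-49608014 for Ogn, chr13:49544193-49544442 for Aspn, chr1:134037004-134037253 for Fmod and chr1:133921402-133921651 (minus strand) for Prelp. Capitals mark matches, on either strand, to the TATA box (TATAAA), the GC box (GGGCGG), the E-box (CACGTG), the AP-1 site (TGANTCA) or the CCAAT box (CCAAT).
Ogn: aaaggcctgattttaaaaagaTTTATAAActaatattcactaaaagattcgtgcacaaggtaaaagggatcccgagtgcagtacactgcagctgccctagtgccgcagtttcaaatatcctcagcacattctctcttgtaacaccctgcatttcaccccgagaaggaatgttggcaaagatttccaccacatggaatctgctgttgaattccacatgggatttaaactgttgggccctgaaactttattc
Aspn: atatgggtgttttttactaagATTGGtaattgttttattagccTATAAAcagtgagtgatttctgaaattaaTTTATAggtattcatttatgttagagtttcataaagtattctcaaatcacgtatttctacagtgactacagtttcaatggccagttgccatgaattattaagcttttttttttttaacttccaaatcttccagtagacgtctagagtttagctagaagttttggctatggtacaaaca
Fmod: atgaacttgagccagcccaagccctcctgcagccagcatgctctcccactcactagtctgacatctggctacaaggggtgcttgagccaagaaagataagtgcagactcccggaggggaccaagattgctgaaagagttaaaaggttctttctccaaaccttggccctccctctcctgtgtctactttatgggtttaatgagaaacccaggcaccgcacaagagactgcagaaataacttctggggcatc
Prelp: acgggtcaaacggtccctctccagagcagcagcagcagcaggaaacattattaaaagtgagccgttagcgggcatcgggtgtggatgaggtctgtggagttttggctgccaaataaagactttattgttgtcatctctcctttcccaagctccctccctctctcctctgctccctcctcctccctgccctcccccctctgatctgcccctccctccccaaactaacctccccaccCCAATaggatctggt
The GC content of these 250 bases was 42% for Ogn, 30% for Aspn, 51.2% for Fmod and 55.6% for Prelp, where the median over 32851 promoters was 52.4%. The TATA box letters were found in Ogn and Aspn alone of the 7 genes with a promoter in the table, and in 12.4% of all promoters. In Ogn these matches overlap, and in both genes they lie from 178 to 229 bases before the start. The CCAAT letters were found in Aspn, Kera and Prelp (33.8% of all promoters), and the GC box letters in Bgn (32.7%). The letters of the E-box and of the AP-1 site, found in 6.02% and 6.75% of all promoters, were in none of the 7 windows. Dcn and Lum were not matched.

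Osteoglycin (Ogn, ENSMUSG00000021390), a class III member of cornea, bone and other connective tissue, had the smallest adjusted p of the 9. Its adjusted counts were 1051 and 866 in subjective day against 528 and 386 in objective day. Both objective day samples lay below both subjective day samples, by more than the spread within either condition. The means were 958 ± 131 and 457 ± 100 (SD, n = 2), and the log2 fold change was -1.08 (standard error 0.16, limma adjusted p = 0.00908). The call was lost with a variance that does not follow the mean level (adjusted p = 0.136), as were those of Lum and Aspn. With the trend in GC content removed, Ogn stood at -0.49 (adjusted p = 0.262).

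Asporin (Aspn, ENSMUSG00000021388), a class I member that binds collagen and TGF-beta, lies in the same cluster. Its adjusted counts were 182 and 163 in subjective day against 115 and 79.1 in objective day, without overlap. The log2 fold change of Aspn was -0.85 (standard error 0.20, adjusted p = 0.0458), and with the GC trend removed it was -0.14 (adjusted p = 0.824), both from limma's test. The call was lost when subjective day replicate 1 was left out (log2 fold change -0.77) or objective day replicate 2 (log2 fold change -0.58).

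Osteomodulin (Omd, ENSMUSG00000048368), a keratan sulfate proteoglycan known from bone, was the least abundant of the 9. Its adjusted counts were 49.9 and 30.3 in subjective day against 20.0 and 11.4 in objective day. The samples did not overlap, but the log2 fold change of -1.31 had a standard error of 0.39 and did not pass the threshold (limma adjusted p = 0.0881). It was -1.66 without subjective day replicate 2, and with the GC trend removed it was -0.71 (adjusted p = 0.503). Ecm2, a relative at the edge of the same cluster, had adjusted counts of 210 and 162 in subjective day against 116 and 134 in objective day (log2 fold change -0.56, adjusted p = 0.0927).

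Lumican (Lum, ENSMUSG00000036446), a keratan sulfate proteoglycan of cornea and sclera that binds collagen, had adjusted counts of 993 and 657 in subjective day against 513 and 456 in objective day. Both objective day samples lay below both subjective day samples, although the subjective day samples themselves differed by a factor of 1.51. The log2 fold change of Lum was -0.74 (standard error 0.18, limma adjusted p = 0.0477), close to the threshold, and the call was lost without objective day replicate 2 (log2 fold change -0.66). The log2 fold change was -0.44 without subjective day replicate 1, and without subjective day replicate 2 it was -1.04. With the trend in GC content removed, the log2 fold change of Lum was -0.47 (adjusted p = 0.324).

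Decorin (Dcn, ENSMUSG00000019929), which binds fibrillar collagen and TGF-beta, was the most abundant of the 9. Its adjusted counts were 7715 and 4782 in subjective day against 5185 and 4556 in objective day. Subjective day replicate 1 stood above the other 3 samples, which lay close together, and objective day replicate 1 lay above subjective day replicate 2. For Dcn the log2 fold change was -0.32 (95% interval -0.78 to 0.14, limma adjusted p = 0.350). Without subjective day replicate 1 it was 0.023, without subjective day replicate 2 it was -0.67, and with the GC trend removed it was 0.21. The sign of its fold change thus depended on the sample left out.

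Keratocan (Kera, ENSMUSG00000019932), which marks the keratocytes of the corneal stroma, was present at low levels in all samples. Its adjusted counts were 189 and 102 in subjective day against 117 and 133 in objective day. The objective day samples lay between the subjective day samples, which differed by a factor of 1.85. For Kera the log2 fold change was -0.15 (95% interval -0.79 to 0.49, limma adjusted p = 0.774), 0.29 without subjective day replicate 1 and 0.19 with the GC trend removed.

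Fibromodulin (Fmod, ENSMUSG00000041559), which guides collagen crosslinking in tendon and sclera and binds the same stretch of collagen as lumican, had adjusted counts of 2359 and 1907 in subjective day against 2727 and 2790 in objective day. Both objective day values exceeded both subjective day values. The log2 fold change of Fmod was 0.38 (standard error 0.099, limma adjusted p = 0.0599), which missed the threshold, and it was 0.27 with the GC trend removed (adjusted p = 0.206). It was 0.53 without subjective day replicate 1, and without subjective day replicate 2 it was 0.23.

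Prelp (ENSMUSG00000041577), which links basement membranes to collagen through heparan sulfate, had adjusted counts of 2604 and 2300 in subjective day against 3307 and 2747 in objective day. The samples did not overlap. For Prelp the log2 fold change was 0.30 (95% interval 0.062 to 0.54 for this gene alone), but the adjusted p over all genes was 0.119 from limma's test. Without subjective day replicate 1 the log2 fold change was 0.39, without objective day replicate 1 it was 0.17, and with the GC trend removed it was 0.19 (adjusted p = 0.405).

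Biglycan (Bgn, ENSMUSG00000031375), the close relative of decorin, had adjusted counts of 2884 and 2222 in subjective day against 3139 and 2696 in objective day. Objective day replicate 2 lay below subjective day replicate 1, so the conditions overlapped. For Bgn the log2 fold change was 0.20 (95% interval -0.097 to 0.50, limma adjusted p = 0.370). Without subjective day replicate 1 it was 0.39, without objective day replicate 1 it was 0.091, without subjective day replicate 2 it was 0.013, and with the GC trend removed it was 0.13 (adjusted p = 0.680).

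**Figure D2:**
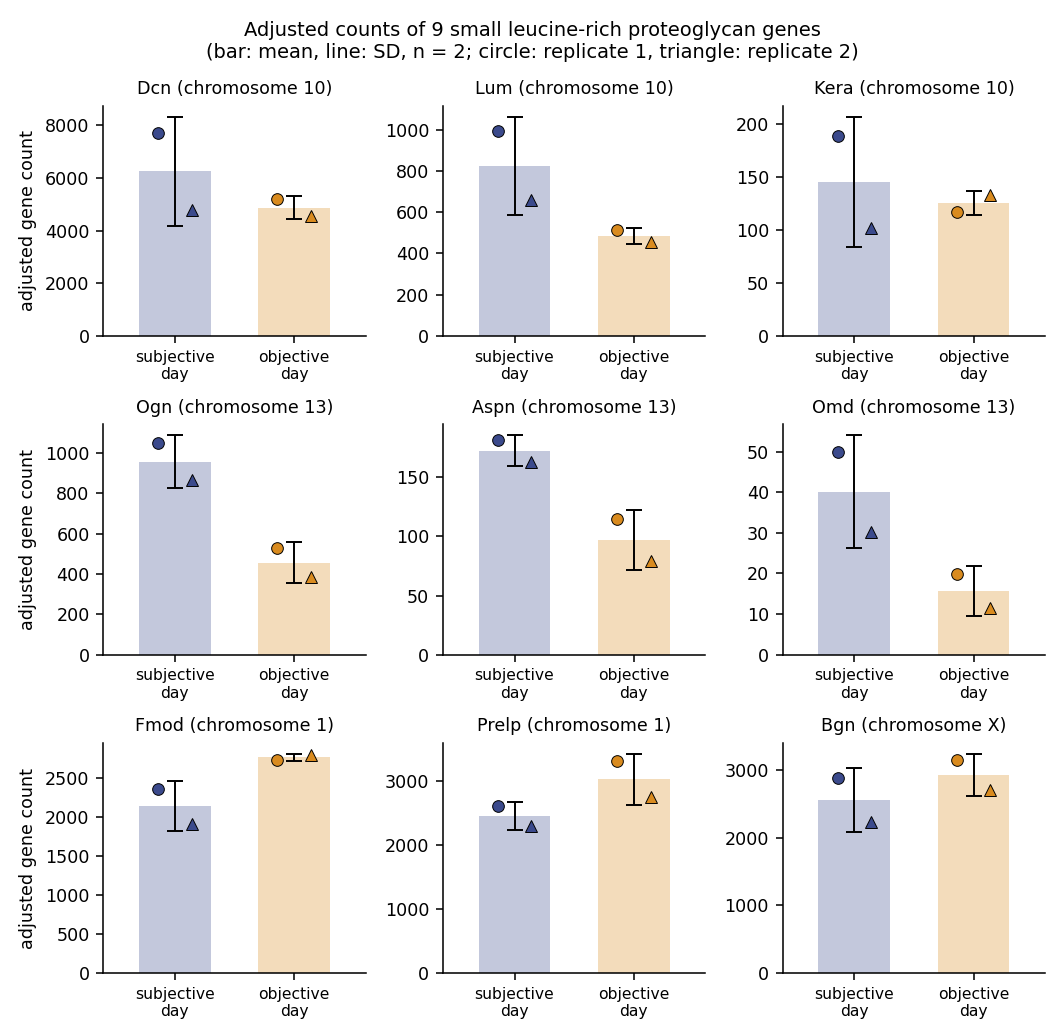
Adjusted gene counts of the 9 genes (y axes, each from 0) in subjective day (blue) and objective day (orange), with bars for the mean, lines for the SD (n = 2), circles for replicate 1 and triangles for replicate 2. Lum, Ogn, Aspn and Omd are lower in both objective day samples than in both subjective day samples, Fmod and Prelp are higher in both, and the conditions overlap for Dcn, Kera and Bgn.

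Subjective day replicate 1 had the larger value of its condition for all 9 genes, as it had for 53.8% of all genes tested, by factors from 1.11 for Aspn to 1.85 for Kera. In objective day, replicate 1 had the larger value for 7 of the 9 genes, beside 55.1% of all genes tested. Without subjective day replicate 1, limma called 5 of the 9 genes (2 lower and 3 higher), beside 15.8% of all genes tested, and the median log2 fold change was 0.023. Without subjective day replicate 2, 5 were called, all lower, beside 7.75% of all genes tested, and the median was -0.67. The opposing fold changes of Ogn and Fmod kept their sign whichever sample was left out, from -1.30 to -0.85 for Ogn and from 0.23 to 0.53 for Fmod.

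**Figure D3:**
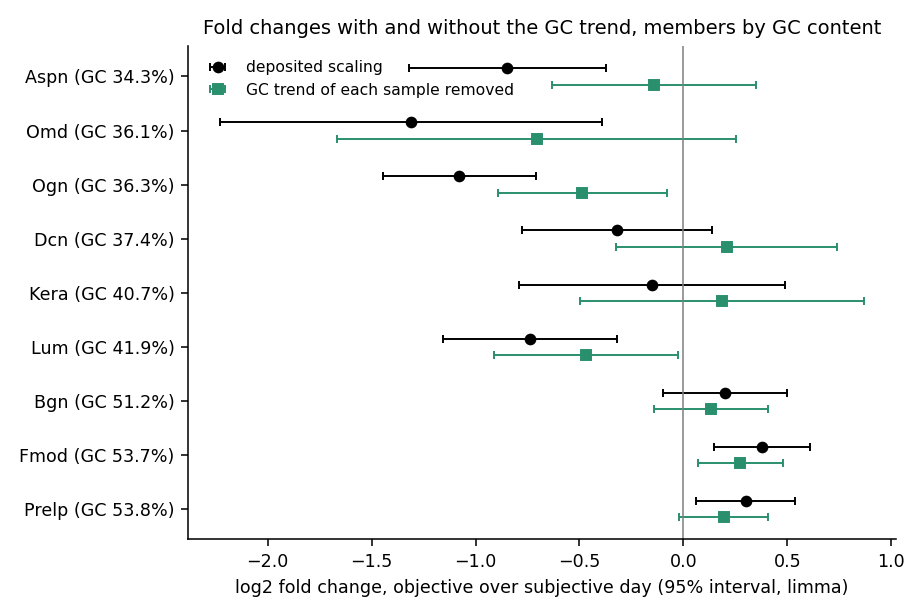
Log2 fold change of objective over subjective day (x axis) with 95% intervals from limma for the 9 genes, ordered by the GC content of their longest transcript, with the deposited scaling (black circles) and with each sample's GC trend removed (green squares). Removal of the trend moves the 6 genes of low GC content towards higher values, takes Dcn and Kera above 0 and leaves Ogn at -0.49 and Lum at -0.47.

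Levels were compared between genes per kilobase of merged annotated exons, which were 5.84 kilobases for Dcn and 6.10 for Bgn. The order of the genes depends on this length, and which transcripts were expressed was not tested. By mean adjusted count over the 4 samples, Bgn (2735) stood beside Prelp (2739) and above Fmod (2446). In subjective day decorin stood highest, at 1321 and 819 adjusted counts per kilobase, and Prelp (720 and 636) and Fmod (713 and 577) followed without differing from each other beyond their spread. Bgn came next at 473 and 364, and Ogn (409 and 337) and Lum (405 and 268) overlapped with it and with each other. Kera (82.8 and 44.7) and Aspn (77.2 and 69.3) overlapped at a lower level, and Omd was lowest at 22.2 and 13.5. In objective day the levels of decorin (888 and 780), Prelp (915 and 760) and Fmod (825 and 844) overlapped, while Bgn (515 and 442) lay above Lum (209 and 186) and Ogn (206 and 150) without overlap. Biglycan was thus apart from osteoglycin and lumican in objective day. In subjective day the ranges overlapped, although biglycan lay above both genes within each sample.

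The summed adjusted count of the 9 genes overlapped between the conditions. It was 18025 and 13028 in subjective day against 15650 and 13854 in objective day, so that objective day lay within the range of subjective day. The make-up of that sum differed. Decorin made up 42.8% and 36.7% of it in subjective day against 33.1% and 32.9% in objective day, and osteoglycin 5.83% and 6.65% against 3.37% and 2.79%. Fibromodulin made up 13.1% and 14.6% in subjective day against 17.4% and 20.1% in objective day. Prelp made up 14.4% and 17.7% against 21.1% and 19.8%. None of these 4 shares overlapped between the conditions, nor did those of Lum, Bgn, Aspn and Omd, while that of Kera did. By adjusted count, 56.1% of all genes tested did not overlap. The shares are parts of the same sum, so a smaller share of some genes raises the others, and they are no separate results. A share does not depend on the scaling of its sample, but it can depend on the GC trend. With that trend removed, decorin had a log2 fold change of 0.21, beside 0.27 for fibromodulin and 0.19 for Prelp.

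**Figure D4:**
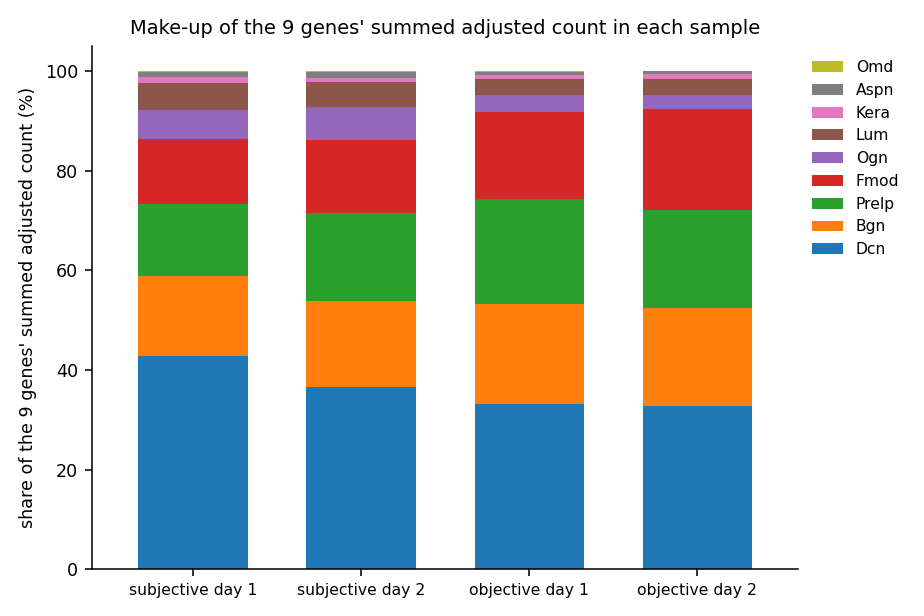
Share of each of the 9 genes in their summed adjusted count (y axis, percent) in each of the 4 samples (x axis). Dcn, Ogn and Lum take smaller shares and Fmod, Prelp and Bgn larger shares in both objective day samples than in both subjective day samples.

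Ratios within a sample do not depend on its scaling, and pairs of related genes were compared in this way after their values had been seen. The ratio of fibromodulin to lumican was 2.38 and 2.90 in subjective day against 5.32 and 6.12 in objective day. The ratio of decorin to biglycan was 2.68 and 2.15 in subjective day against 1.65 and 1.69 in objective day. Both ratios thus separated the conditions, and both set a gene of low GC content against one of high GC content. For fibromodulin and lumican this follows from their own values, which did not overlap and went in opposite directions. Their ratio is therefore no separate result. With the GC trend removed, the log2 fold changes of decorin and biglycan were 0.21 and 0.13, so that the direction of their ratio turned, while those of fibromodulin and lumican were 0.27 and -0.47. Within the cluster on chromosome 10, the ratio of lumican to decorin was also lower in objective day, at 0.0989 and 0.100 against 0.129 and 0.137. The GC content is 41.9% for lumican and 37.4% for decorin. The part of GC content in these ratios was not tested. On chromosome 1, the ratio of Prelp to fibromodulin overlapped between the conditions, at 1.10 and 1.21 in subjective day against 1.21 and 0.984 in objective day.

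Other members of the family were present in the eye as well, and 9 of them passed the filter. Opticin (Optc), a class III member of the vitreous and the neighbour of Prelp on chromosome 1, had adjusted counts of 547 and 536 in subjective day against 795 and 878 in objective day. It was called higher (log2 fold change 0.62, limma adjusted p = 0.00708), and still with the GC trend removed (0.52, limma adjusted p = 0.0397). Epiphycan (Epyc), at the end of the cluster on chromosome 10, had 91.9 and 72.3 in subjective day against 38.6 and 49.8 in objective day (log2 fold change -0.88, limma adjusted p = 0.0623), and it shares exonic bases with a noncoding RNA on the other strand. Nyctalopin (Nyx), which anchors the light response complex of retinal ON bipolar cells, had 1226 and 1184 in subjective day against 1140 and 1198 in objective day (log2 fold change -0.044, limma adjusted p = 0.732). The fold changes of Tsku, Chadl, Chad, Podn and Podnl1 lay between -0.052 and 0.41 without a call. With Ecm2, 8 of these 9 genes did not pass the test, and their median log2 fold change with Optc included was -0.0089. Of the 9, 5 had negative fold changes. Those of Ecm2 and Epyc, of 39.1% and 36.5% GC, became -0.13 and -0.30 with the GC trend removed.

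The collagens of the fibrils to which these proteins bind did not pass the test. Of 14 genes, 0 were called by limma, 5 had an unadjusted p under 0.05, and the median log2 fold change was 0.064. Col1a2 had adjusted counts of 3917 and 2483 in subjective day against 3504 and 3153 in objective day. Col1a1 had 2734 and 1998 against 3334 and 2853 and Col6a1 had 2271 and 2124 against 2153 and 2354. The GC content of these 3 collagens was 55.7%, 58.9% and 56.7%, above that of the genes that fell. Per Col1a1 in the same sample, osteoglycin was 0.384 and 0.433 in subjective day against 0.158 and 0.135 in objective day, while fibromodulin was 0.863 and 0.954 against 0.818 and 0.978. The ratio of fibromodulin to Col1a1 thus overlapped between the conditions and that of osteoglycin did not. The latter follows from the values of Ogn and Col1a1, which each lay apart, in opposite directions. With the GC trend removed, limma called 1 of the collagens lower, the cartilage and vitreous collagen Col2a1 (-0.45, adjusted p = 0.0367).

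Of the 17 genes tested that hydroxylate, trim or crosslink collagen, 1 was called higher and none lower. It was Adamts3, a procollagen protease, with 1895 and 1969 in subjective day against 2264 and 2422 in objective day (log2 fold change 0.28, limma adjusted p = 0.0434). The abundant P4hb and P4ha1, subunits of the prolyl hydroxylase, had fold changes of 0.11 and 0.071 without a call, and the median of the list was 0.11. With the trend in GC content removed, Adamts3 stood at 0.22 and the call was lost (limma adjusted p = 0.178).

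Of 21 genes for enzymes that build chondroitin and dermatan sulfate chains, 1 was called lower and 1 higher, a number near the 8.51% of all genes tested, with a median of 0.14. Dsel, an epimerase that makes dermatan sulfate, had 359 and 323 in subjective day against 215 and 189 in objective day (log2 fold change -0.75, limma adjusted p = 0.0126). Chst3, a chondroitin sulfotransferase, had 2119 and 2289 against 2767 and 2914 (log2 fold change 0.37, limma adjusted p = 0.0189). B3gat3 and Fam20b, which act on the linker of the chains, had fold changes of 0.22 and 0.02 without a call. Dsel and Chst3 have a GC content of 40.8% and 53.8%, and after removal of the trend their log2 fold changes were -0.42 and 0.26, without a call (limma adjusted p = 0.178 and 0.152). Of 6 genes for keratan sulfate 0 were called by limma and 1 had an unadjusted p under 0.05, with a median of 0.081. That gene was Chst1, a keratan sulfate sulfotransferase (log2 fold change 0.26, limma adjusted p = 0.0507), while B4galt1 and Chst2 had fold changes of 0.12 and 0.04.

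Among 12 TGF-beta ligands, latency proteins and receptors, 1 was called lower and none higher, with a median of 0.16. It was Tgfbr1, a signalling receptor, with 1251 and 1372 in subjective day against 993 and 928 in objective day (log2 fold change -0.45, limma adjusted p = 0.0158), and after removal of the GC trend its log2 fold change was -0.13 (limma adjusted p = 0.461). Tgfb2, Ltbp3 and Ltbp4 had fold changes of 0.024, 0.19 and 0.12. Of 7 receptors known to bind members of the family 0 were called by limma and 4 had an unadjusted p under 0.05, with a median of -0.14 and fold changes of 0.19 for Lrp1, -0.14 for Kdr and 0.15 for Igf1r.

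Of 12 matrix proteases and inhibitors tested, 1 was called higher and 1 lower, and both are proteoglycan-cleaving enzymes. Adamts4 had 13 and 18.7 in subjective day against 57.8 and 43.9 in objective day (log2 fold change 1.63, limma adjusted p = 0.0223). Adamts5 had 1792 and 1871 against 1218 and 1306 (log2 fold change -0.54, limma adjusted p = 0.00602). After removal of the GC trend they stood at 1.51 and -0.36, with limma adjusted p values of 0.0831 and 0.0569. The inhibitors Timp3 and Timp2 and the protease Htra1 had fold changes of -0.0028, 0.07 and 0.26, and the median of the list was 0.11. Among 24 proteoglycans of other families, with a median of 0.03, Hspg2 (perlecan, of basement membranes) was called higher, with 1694 and 1794 against 2533 and 2340 (log2 fold change 0.48, limma adjusted p = 0.00842). Sdc2, a cell surface proteoglycan, was called lower, with 2045 and 1993 against 1709 and 1529 (log2 fold change -0.32, limma adjusted p = 0.0402). After removal of the GC trend both calls were lost, with Hspg2 at 0.34 (limma adjusted p = 0.0914) and Sdc2, of 41.6% GC, at -0.029 (limma adjusted p = 0.901). Spock2, Impg1 and Impg2, the most abundant of this list, had fold changes of 0.20, -0.051 and -0.072. Over these lists together with the other family members, 4 of 122 genes were called lower and 5 higher, where 7.45% and 1.06% of all genes tested were, and with upper quartile scaling 4 were called lower and 9 higher.

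The label of the tissue was compared with markers of its cells. The 8 fibroblast markers were all present, with a summed adjusted count of 5868 and 4931 in subjective day against 6448 and 6460 in objective day. Of these, 2 were called higher and none lower, and their median log2 fold change was 0.0055. They were Mfap4 (690 and 591 against 1150 and 1076, log2 fold change 0.80, limma adjusted p = 0.00558) and Fbln1 (1170 and 1366 against 1996 and 1890, log2 fold change 0.62, limma adjusted p = 0.00782), both proteins of matrix fibres. After removal of the GC trend Mfap4 was still called (0.70, limma adjusted p = 0.0242) and Fbln1 was not (0.50, limma adjusted p = 0.0616). Pi16, also abundant, had a log2 fold change of -0.064. For 7 markers of tendon and cartilage 0 were called by limma, 1 had an unadjusted p under 0.05, and the median was 0.065.

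Genes of the ocular surface were lower in objective day, as were Ogn, Lum and Aspn. Of 7 tested markers of corneal and conjunctival epithelium 6 were called lower, and the list summed to 11494 and 11876 in subjective day against 3520 and 6024 in objective day. Krt15, the most abundant, had 5044 and 5332 against 1348 and 2637 (log2 fold change -1.46, limma adjusted p = 0.0174), followed by Krt5 (log2 fold change -1.44, limma adjusted p = 0.0165) and Krt14 (log2 fold change -1.28, limma adjusted p = 0.00558). With the GC trend removed, 3 of the 7 were called lower, and Krt15 was not among them (log2 fold change -1.58, limma adjusted p = 0.0505). Unlike the genes that fell, these keratins have a GC content of 55.3% to 57.2%. Krt12, the keratin particular to the cornea, had 3.99 and 7.67 against 1.78 and 12.5 and did not reach the filter. The values of Kera, the gene of the corneal stroma among the 9, overlapped between the conditions. Within objective day the epithelial sum was lower in replicate 1, while Ogn, Lum and Aspn were each higher in replicate 1. The part of this surface tissue in the values of Ogn, Lum and Aspn was not tested. Other lists also held genes called lower, beside 7.45% of all genes tested. They were 1 of 4 tested RPE markers (Rpe65, log2 fold change -0.52, limma adjusted p = 0.0286) and 2 of 5 Müller glia markers, with none called higher. The 5 myelin markers had a median of -0.95 without a call. The 8 extraocular muscle markers had a median log2 fold change of -0.061, with 0 called by limma and 1 at an unadjusted p under 0.05. The latter was Myh13, with 1387 and 1871.5 in subjective day against 1102 and 299 in objective day (log2 fold change -1.49, limma adjusted p = 0.122). The lens markers ranged from 185 to 2610 in sum, with replicate 1 high and replicate 2 low in both conditions. Subjective day replicate 1, in which all 9 genes were higher than in replicate 2, had the higher sum of lens markers (2610 against 185), fibril collagens (17294 against 13137), fibroblast markers (5868 against 4931), tendon and cartilage markers (1922 against 1434) and RPE markers (62948 against 51746), as of the other marker lists except for 3. Its sums of myelin markers (1756 against 3653), muscle markers (62104 against 68609) and epithelial markers (11494 against 11876) were the ones that were lower. The part of these tissues in the values of the 9 genes was not tested.

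**Figure D5:**
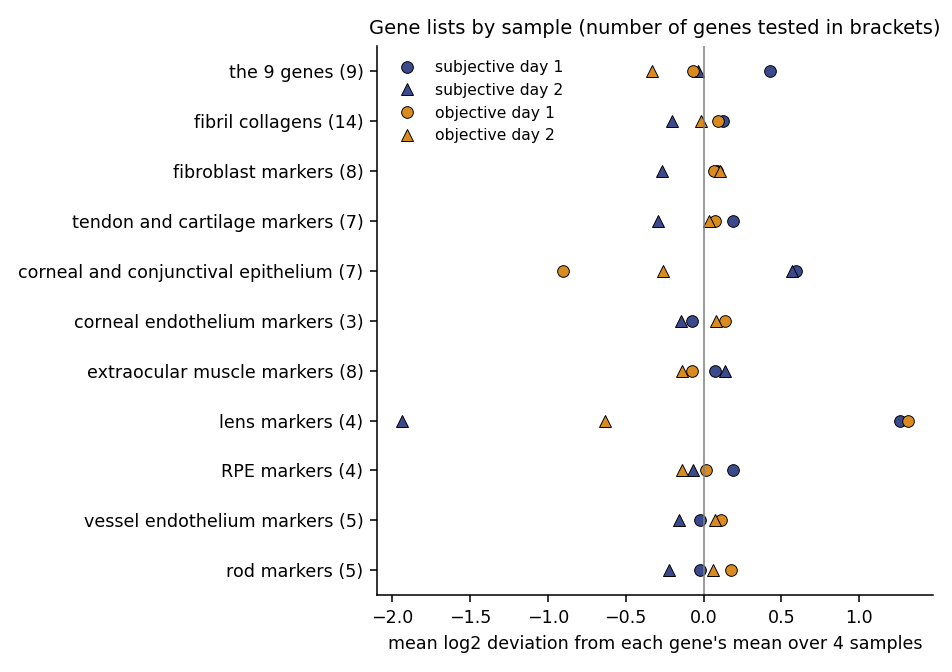
Mean deviation of each gene list from its genes' means over the 4 samples on the log2 scale (x axis), for subjective day (blue) and objective day (orange), replicate 1 (circles) and replicate 2 (triangles). The epithelial markers are lower in both objective day samples, the lens markers separate the replicate numbers, and the 9 genes are highest in subjective day replicate 1.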

How the data were processed

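RNA-seq was performed by the authors on 4 samples of mouse eye, 2 per condition, sequenced on a single lane. Reads were demultiplexed with CASAVA 1.8 and aligned by the authors to Ensembl release 72 of Mus musculus with TopHat2 2.0.9 and Bowtie2 2.1.0, counted with HTSeq and compared with edgeR. The deposited signal per gene and sample is a count, not whole, that the authors scaled to equal library sizes, as judged from the decimals and nearly equal totals, since the sources used here do not describe the scaling. The deposited log2 fold change, log2 CPM, p-value and FDR-adjusted columns hold the authors' comparison and were not used. All 4 sample columns were used.

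Comparisons were made here with limma 3.58.1 (R 4.3.3) after log2(value + 1), keeping genes that reached 10 in 2 or more samples, with Benjamini-Hochberg adjustment at 0.05. The authors' count test was not used because the deposited values are not raw counts. The 2 samples of a condition are labelled as separate samples and described as biological replicates. GC content is that of the longest transcript and exon length that of the merged exons in GENCODE M21 (GRCm38), known for 98.6% of the genes tested. Local regression used a span of 0.3. The test was also run on simulated independent counts, with the same dispersion for every gene and no GC trend or replicate effect. That run lacks features on which the calls here depended, and it is no support for them. Motifs and gene pairs were chosen after values were seen.

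The 9 genes and the lists were chosen with earlier results of these data known. Genes named are the 9, their relatives, the 3 of highest mean and up to 4 called genes of each list, their neighbours, and the 5 nearest to the mean profile of the 9. Chst13 and Chst4 of the lists were not matched. Alternatives covered the pseudocount, filter, scaling, replicate block, variance prior, GC trend and each sample left out. With 2 samples per condition, their number limits the precision. Figures were drawn with matplotlib 3.10.9.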

Additional observations from a re-analysis of the deposited data

How the results depend on the processing

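The count of genes called in all (1514), of the 9 genes called (3), of list genes called (9) and the median of the 9 stayed within 1.5 times, or within the spread between samples, with pseudocounts of 0.5 and 10, no filter, a filter on the mean, and both other scalings. The replicate numbers shared by the conditions are not described as a pairing, and the deviations of same-numbered samples had a correlation of 0.32 over genes. With the replicate number as a block, 3613 genes were called in all, 7 of the 9 (4 lower, 3 higher, beside 20.3% of all genes tested) and 32 list genes (11 lower, 21 higher). The block left the fold changes as they were. Without a variance that follows the mean level, 0 genes were called in limma's test in all, of the 9 and of the lists, and 3586, 5 and 29 had an unadjusted p under 0.05. With the GC trend removed, 188 genes were called in all, 0 of the 9 and 2 list genes, the median of the 9 was 0.13, and Dcn and Kera changed direction, to 0.21 and 0.19. With the GC trend removed and the replicate block together, the median of the 9 and these fold changes were the same. In all, 1092 genes were called (6.23% of those tested), and 2 of the 9, Ogn (adjusted p = 0.00721 from limma's test) and Lum (0.0475). With each sample left out in turn, which leaves 1 sample in a condition that is then assumed to vary like the others, 674 to 2778 genes were called in all, 1 to 5 of the 9 and 5 to 28 list genes. The median of the 9 then ran from -0.67 to 0.023, the fold change of Dcn from -0.67 to 0.023 and that of Kera from -0.59 to 0.29, each highest without subjective day replicate 1.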

Other observations

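Among 13038 genes outside the lists with a mean adjusted count of at least 100, the 5 whose values over the 4 samples were nearest to the mean profile of the 9 genes, by Euclidean distance of centred log2 values, were Tusc1, Cd24a, E130311K13Rik, Zc4h2 and Tma7, at distances of 0.0824 to 0.148. Cd24a had adjusted counts of 1948 and 1512 in subjective day against 1391 and 1125 in objective day. None of these 5 genes passed limma's test, with adjusted p values from 0.0921 to 0.389. The mean profile joins genes with opposite fold changes.

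Neighbours of the 9 genes outside the family had fold changes of their own. Btg1, an antiproliferation gene beside Dcn on chromosome 10, had adjusted counts of 2135 and 2197 in subjective day against 1673 and 1675 in objective day and was called lower (log2 fold change -0.37, limma adjusted p = 0.0125), a call that was lost with the GC trend removed (-0.16, limma adjusted p = 0.234). Nol8, beside Ogn on chromosome 13, had 807 and 804 in subjective day against 697 and 620 in objective day (log2 fold change -0.29, limma adjusted p = 0.0807), and -0.016 with the GC trend removed. Btg2, a relative of Btg1 beside Fmod on chromosome 1, had 1696 and 1575 in subjective day against 1675 and 1726 in objective day, which overlapped (log2 fold change 0.057, limma adjusted p = 0.645). Haus7 and Atp2b3, on either side of Bgn, were higher in both objective day samples without a call (log2 fold change 0.26, limma adjusted p = 0.16 and log2 fold change 0.25, limma adjusted p = 0.0584).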
